A study of Drosophila melanogaster with 2 samples.

Results

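The microRNA genes of the *Drosophila melanogaster* genome were examined for binding of Giant, a basic leucine zipper repressor encoded by the gap gene gt. All annotated genes on the 6 main chromosome arms that give rise to a pre-miRNA transcript, with symbols that start with mir-, were taken, 260 of the 18164 annotated main-arm genes (transposable elements left out). Chromatin immunoprecipitation followed by sequencing (ChIP-seq) was done on whole embryos of 0 to 18 h. The embryos came from flies carrying a gt-eGFP fusion, which was pulled down through its GFP tag from chromatin sonicated to fragments of 200 to 800 bp. There was 1 group with 2 biological replicates, so no groups were compared and no test was run. Whole embryos hold all tissues of a long time span, and a peak in few cells or for a short time cannot be told apart from a weak peak in many.

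A microRNA (miRNA) gene is transcribed into a long primary transcript that folds into a hairpin. Drosha cuts out the hairpin, Dicer trims it, and the mature miRNA then guides Argonaute to messenger RNAs that pair with its seed, the bases near its 5' end. Several hairpins can sit in the same primary transcript, and many lie inside a host gene whose promoter they use. A summit that matters for a miRNA can therefore lie far upstream of its hairpin, at the start of the primary transcript or of the host gene.

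The mature sequences below belong to 6 of the 12 miRNA genes with a Giant peak nearby, to mir-996 and mir-92b, which share a transcript with a gene that has a peak, and to bantam (mir-ban), whose nearest peak lies just beyond the distance limit. They are given 5' to 3', as RefSeq annotates them on the Release 6 genome, with the seed (bases 2 to 8) in capitals. The names 5p and 3p mark the arm of the hairpin.
mir-279 3p: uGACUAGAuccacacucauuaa
mir-996 3p: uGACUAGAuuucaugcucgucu
mir-92a 3p: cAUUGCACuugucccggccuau
mir-92b 3p: aAUUGCACuagucccggccugc
mir-282 5p: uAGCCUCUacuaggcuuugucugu
mir-375 3p: uUUGUUCGuuuggcuuaaguua
mir-9377 5p: cGCUCUUUcucucuaucuggcc
mir-9377 3p: cUUGAUGGggagaaggagagg
mir-9378 5p: aGUGGAGUgagaccucgaguucgg
mir-9378 3p: gAACGGGAguuuccuccauugg
mir-ban 3p: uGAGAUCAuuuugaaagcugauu
The products of mir-279 and mir-996 have the same seed, which only mir-286 among the other miRNA genes also has. The seed of mir-92a and mir-92b is shared by 6 genes, the others being mir-310, mir-311, mir-312 and mir-313. In all, 481 mature sequences were annotated for the 260 genes.

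The hairpins were short, with a median length of 92 bp and a range of 50 to 174 bp. Neighbours on the same strand with starts at most 10000 bp apart were joined into loci, which gave 203 loci. Of these, 22 were clusters that together held 79 genes, the largest being a run of 12 genes on the X chromosome from mir-972 to mir-979. A host gene on the same strand contained 182 of the hairpins, with 156 different hosts, and the other 78 were intergenic or antisense to a gene.

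The authors' pooled list of peaks past their threshold held 1825 peaks on the main arms, and the lists of replicates 1 and 2 held 1163 and 1100. Their threshold was set on the irreproducible discovery rate (IDR), which measures how alike 2 peak sets rank a region. The long ranked list, of regions before that threshold, held 145186 main-arm regions. The pooled peaks had a −log10 IDR of at least 2.0 in it. Every signal given here is the value of the authors' peak caller, on a scale that the files do not explain, and serves only to describe or rank peaks within its own list. Sequencing depth is unknown, so no interval can be put on a signal.

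Few miRNA genes had a Giant peak close by, and the share was near that of the genome as a whole. A pooled summit lay within 2000 bp of 12 of the 260 genes (4.62%), in 9 of the 203 loci (4.43%), and 10 peaks made up this set. Of all main-arm positions, 4.9% would place a gene of the median hairpin length within the same distance of a pooled summit. The other main-arm genes reached 14.4%, though gene length differs and a longer gene covers more sequence. Counted from the 5' end alone, 1456 of 13945 protein-coding genes (10.4%) had such a summit. Among tRNA, snoRNA and snRNA genes, which are also short, 14.0% had such a summit. The snoRNA genes had the highest share of these at 57 of 269 (21.2%), against 22 of 290 tRNA genes (7.59%) and 4 of 32 snRNA genes (12.5%).

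The 2 replicates' own lists gave a like picture. In the list of replicate 1, 11 miRNA genes (4.23%) had a summit within 2000 bp, against 3.31% of main-arm positions. In the list of replicate 2 there were 8 genes (3.08%), against 3.0% of positions. No summit of the pooled list fell inside a hairpin, but hairpins cover little sequence and no matching share of positions was counted.

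At longer distances the share of miRNA genes rose above that of positions. Within 1000 bp, 7 genes (2.69%) had a summit, against 2.61% of positions. Within 5000 bp there were 38 genes (14.6%), against 11.1% of positions. Within 50000 bp there were 193 genes (74.2%), against 57.7% of positions. The median distance to the nearest pooled summit was 28343.5 bp, with a range of 236 to 1944106 bp, and 30 genes had none within 100000 bp. Clustered genes share a nearest summit, so these shares rest on fewer loci than genes. Positions were counted over the whole sequence, and other genes were not counted beyond 2000 bp. The difference can therefore not be read as particular to miRNA genes.

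**Figure D1:**
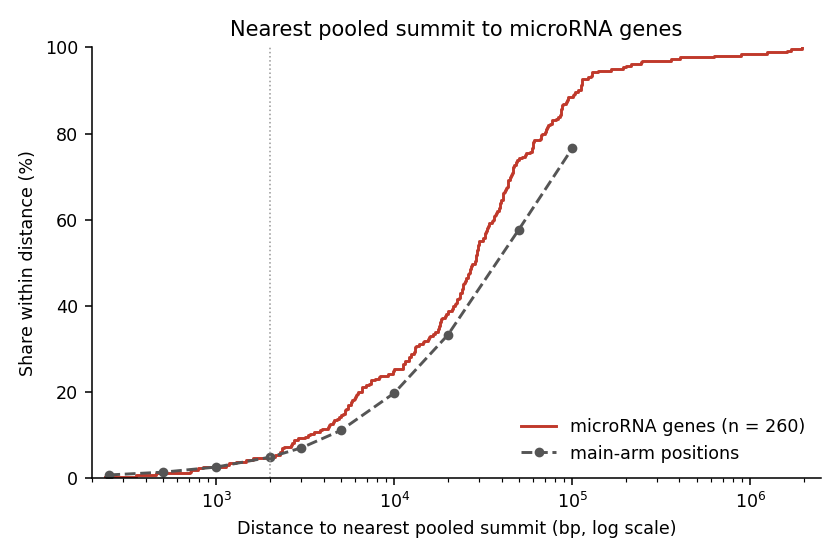
Share of the 260 microRNA genes (red steps) and of main-arm positions (grey points, joined by a dashed line) with a pooled summit within a given distance in bp, on a log scale. The curves lie together at the dotted line at 2000 bp (4.62% and 4.9%) and part beyond it, to 74.2% and 57.7% at 50000 bp.

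The peak with the highest signal near any miRNA gene belonged to mir-279 (FBgn0262448). In the fly, miR-279 and miR-996 keep carbon dioxide-sensing neurons from forming on the maxillary palps, and miR-279 acts on JAK/STAT signalling in the border cells of the ovary. The peak had a signal of 191.9 in replicate 1, where it ranked 39 of 1163, and of 183.0 in replicate 2, where it ranked 80 of 1100. In the pooled list its signal was 385.3 and its rank 52, in the top 2.85%. In each replicate's ranked list, as in the pooled list, the strongest region near any miRNA gene was the one at mir-279.

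The mir-279 peak covered chr3R:29214344-29214547 of dm6 and was intergenic. Its summit lay 1126 bp upstream of the mir-279 hairpin and 103 bp from the annotated start of lncRNA:CR31044, the non-coding host that contains both mir-279 and mir-996. It was thus at the start of the shared transcript, while mir-996, 2725 bp away, fell outside the distance limit. The nearest start of a protein-coding gene, eEF1gamma, was 5713 bp away. Another pooled summit, with a signal of 176.7, lay 4531 bp downstream of the start of the mir-279 hairpin.

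The 151 bases centred on the mir-279 summit, chr3R:29214384-29214534 on the plus strand, are shown because they run up to the host's start. Capitals mark the letters TATAAA, sought on both strands.
mir-279 summit: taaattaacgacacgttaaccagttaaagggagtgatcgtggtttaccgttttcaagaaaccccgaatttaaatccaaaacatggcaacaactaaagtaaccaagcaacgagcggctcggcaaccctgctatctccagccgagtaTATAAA
The TATAAA begins 33 bases before the annotated start of lncRNA:CR31044, on the strand of the host. TATAAA was present within 75 bp of the summit in 4 of the 10 peaks near miRNA genes and in 27.3% of all pooled peaks. This motif was searched after the values had been seen. The window holds no copy of TTACGTAA, the palindromic Giant site, with at most 1 mismatch.

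The other peak within 500 bp of an annotated start of a non-coding host belonged to mir-282 (FBgn0262368). It had signals of 44.1 in replicate 1 and 65.1 in replicate 2, with ranks of 816 and 668, and of 109.2 in the pooled list. It covered chr3L:3250056-3250411, with its summit 788 bp upstream of the hairpin. The summit fell in an exon of the host, lncRNA:CR43626, 360 bp from the nearest of that gene's 3 annotated starts, an internal one. The other starts lay upstream of the summit, 1682 and 1432 bp before the start of the hairpin. The 151 bases around the summit, chr3L:3250159-3250309 on the plus strand, hold a Giant site with 1 mismatch, in capitals.
mir-282 summit: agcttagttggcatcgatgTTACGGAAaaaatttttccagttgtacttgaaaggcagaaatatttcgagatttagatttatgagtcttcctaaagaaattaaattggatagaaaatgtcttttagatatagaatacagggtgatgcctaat

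A further non-coding host, lncRNA:CR45345, contains mir-375 (FBgn0262177), a gene whose mouse counterpart is known from insulin-secreting islet cells. Its peak at chr2L:856654-857009 had signals of 49.1 in replicate 1 and 63.5 in replicate 2, ranks 688 and 694, and 120.8 in the pooled list. The summit lay 710 bp upstream of the hairpin and 571 bp from the annotated start of the host, just beyond the 500 bp used here for a promoter. The window around it held neither TATAAA nor a Giant site.

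The peak of mir-92a (FBgn0262411) lay at an internal promoter of its protein-coding host. The gene sits in an intron of jigr1, which encodes a putative DNA-binding protein, and its seed family is that of the miR-92 miRNAs, which maintain neuroblasts in the larval brain. The signal was 59.4 in replicate 1 and 88.8 in replicate 2, ranks 483 and 388, and 150.9 in the pooled list. The summit, in the peak chr3R:25646882-25647237, was 460 bp downstream of the mir-92a hairpin and 186 bp from a start of jigr1. It lay between mir-92a and mir-92b, the second hairpin of the host, which is 4338 bp away. The sequence shown is chr3R:25646985-25647135, plus strand, with TATAAA in capitals.
mir-92a summit: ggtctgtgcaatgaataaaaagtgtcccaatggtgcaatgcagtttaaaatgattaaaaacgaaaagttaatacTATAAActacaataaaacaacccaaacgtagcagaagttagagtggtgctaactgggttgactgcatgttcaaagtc
Here TATAAA begins 187 bases before the jigr1 start.

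The only miRNA gene with 2 pooled peaks was mir-9377 (FBgn0283559), in an intron of Tis11, which encodes an RNA-binding protein of AU-rich element decay. The stronger peak, chrX:12666439-12666794, had signals of 87.8 in replicate 1 and 121.1 in replicate 2, ranks 226 and 205, and 208.9 in the pooled list. The weaker one, chrX:12665444-12665799, had 72.8 in replicate 1 and 73.9 in replicate 2, ranks 333 and 541, and 150.8 in the pooled list. Both lay downstream of the hairpin, by 1349 and 354 bp, and over 5000 bp from the nearest Tis11 start. The stronger peak holds a Giant site with 1 mismatch, in capitals in chrX:12666542-12666692, plus strand.
mir-9377 summit at 1349 bp: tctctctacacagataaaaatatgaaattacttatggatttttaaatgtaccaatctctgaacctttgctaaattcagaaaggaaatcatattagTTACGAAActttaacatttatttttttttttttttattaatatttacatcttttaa

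The closest summit to any miRNA gene was that of mir-9378 (FBgn0283551), 236 bp upstream of the hairpin in an intron of CG17124. The peak, chr2L:10751996-10752351, was called in replicate 2 alone, with a signal of 56.3 and a rank of 844. In replicate 1 its region had a signal of 26.3 and ranked 2699 of 104826 in the ranked list, short of that replicate's threshold. The pooled signal was 84.0, rank 1085, below the median of all pooled peaks.

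**Figure D2:**
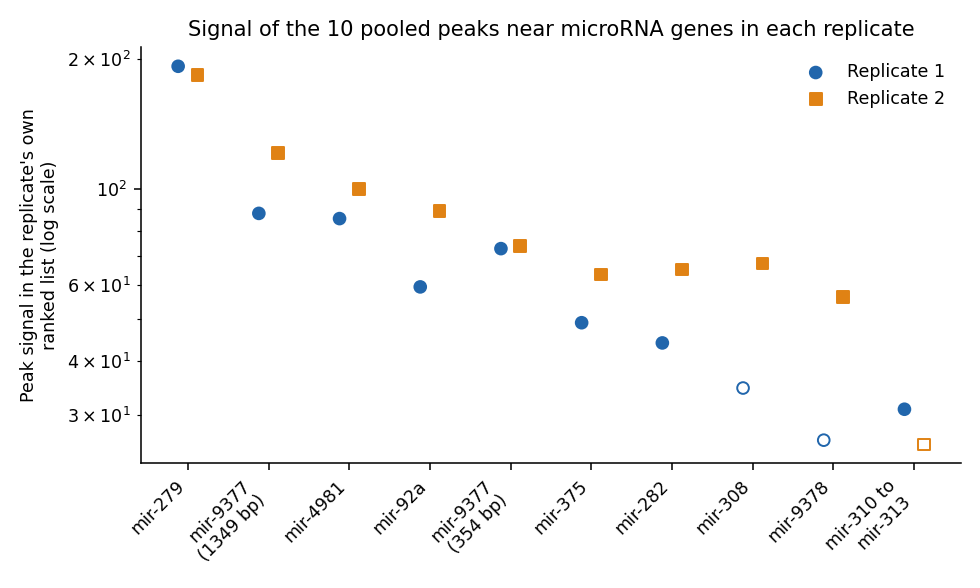
Signal of the 10 pooled peaks within 2000 bp of a microRNA gene in each replicate's own ranked list, on a log scale, ordered by pooled signal. Circles are replicate 1 and squares replicate 2, and open symbols mark peaks that the replicate's thresholded list lacks. The mir-279 peak is highest in both (191.9 and 183.0), and 7 of the 10 are filled for both.

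The other genes near a peak lie on arm 2R. The gene mir-4981 (FBgn0263572) had signals of 85.4 in replicate 1 and 99.9 in replicate 2, ranks 246 and 307, and 178.2 in the pooled list. Its intergenic summit, in chr2R:8014233-8014588, was 838 bp upstream of the hairpin and 656 bp from the start of CG14762. The peak of mir-308 (FBgn0262407), a gene in an intron of the ribosomal protein gene RpS23, lay 6 bp from the RpS23 start and 720 bp upstream of the hairpin, in chr2R:14216406-14216761. It was called in replicate 2 (67.3, rank 644) and not in replicate 1, where the region had a signal of 34.7 and ranked 1332 in the ranked list.

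The weakest of the 10 peaks lay within 2000 bp of 4 genes. The hairpins of mir-310, mir-311, mir-312 and mir-313, which carry the miR-92 seed, lay 1170, 1295, 1474 and 1608 bp from a summit in chr2R:20582404-20582759. It was downstream of all 4 and 450 bp from the start of qsm, a gene of the circadian light response. The peak was called in replicate 1 (31.0, rank 1139) and not in replicate 2, where the region had a signal of 25.7 and ranked 13151. With a pooled signal of 60.2 it ranked 1663 of 1825, and the conservative list lacks it. Of the 12 genes near a pooled summit, 6 thus rest on a peak called in 1 replicate alone, these 4 with mir-308 and mir-9378. Of the 6 genes with the AUUGCAC seed, 5 had a summit within 2000 bp, in 2 loci.

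Taken as a set, the 10 peaks ranked above the middle of the pooled list, with their median at 27.0% of the ranking from the top. In the replicates' own lists this was less clear, with the median at 35.1% over the 8 of them called in replicate 1 and at 49.2%, the middle of the list, over the 9 called in replicate 2. In the pooled list their median signal was 135.8, with a range of 60.2 to 385.3, and that of all pooled peaks was 93.7. In all, 8 of the 10 lay above that median. Peaks of both replicates overlapped 7 of the 10, a single replicate's peak the other 3, and the conservative list held 9. Of all pooled peaks, 41.2% overlapped peaks of both replicates.

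Protein-coding promoters held 3 of the 10 summits, those at jigr1, RpS23 and qsm, within 500 bp of a start, against 42.5% of all pooled summits. With starts of non-coding genes as well the number was 5, for which the matching share of all pooled summits was not counted. Upstream of the nearest hairpin lay 6 summits, and downstream 4. Within 100 bp of the summit, a Giant site with at most 1 mismatch was present in 4 of the 10 peaks, those of mir-282, mir-308, the mir-310 group and the stronger peak of mir-9377. Of all pooled peaks, 9.32% had such a site. Within 50 bp the site was present in 3 of the 10 and in 4.82% of all pooled peaks. Within 200 bp the values were 4 of the 10 and 14.8%. These counts rest on 10 peaks, and those of mir-308 and the mir-310 group were each called in 1 replicate alone. CAGTG, a motif taken from earlier results on these data and sought on both strands like the others, was present in 2 of the 10 and in 50.7% of all pooled peaks. This contrast depends on the window, since within 200 bp it was present in 6 of the 10 and in 71.9% of all pooled peaks. Neither TATCGATA, the site of DREF, nor CAGGTAG, the site of Zelda, was present in any of the 10, against 2.63% and 1.1% of all pooled peaks. Within 200 bp, CAGGTAG was present in 1 of the 10 and in 2.96% of all pooled peaks. TATCGATA was in 0 of the 10 there, against 4.93%. At such low shares, 10 peaks would hold few copies or none.

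By position, 5 of the 51 intergenic miRNA genes had a summit within 2000 bp, as did 3 of the 43 in an exon of a non-coding host and 4 of the 100 in an intron of a coding host. None was near the 36 in an exon of a coding host, the 27 antisense to a gene, or the 3 in an intron of a non-coding host. In 34 genes the hairpin filled an intron to within 5 bp at each end, the arrangement of mirtrons, which are made by splicing in place of Drosha. None of these had a summit nearby. At the 4.62% of all miRNA genes, or the 4.9% of positions, classes of this size would hold few genes near a summit or none, and nothing particular to a class can be read from these counts or from those by arm. By arm, 6 of the 55 genes on 2R, 2 of the 56 on 2L, 1 of the 31 on 3L, 2 of the 58 on 3R, 1 of the 58 on X and 0 of the 2 on chromosome 4 were near a summit.

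Since a miRNA inside a gene can be made from the host's transcript, summits at the hosts' own starts were also counted, a choice made after the first values had been seen. Every annotated start of a host was counted, also one downstream of a hairpin, whose transcript would not hold that hairpin. The start near the summit lay downstream of mir-92a in jigr1 and of mir-4972 in for. A pooled summit lay within 500 bp of an annotated start in 17 of the 124 protein-coding hosts (13.7%), which hold 20 miRNA genes. Of the other protein-coding genes, 7.43% had one. The coding hosts had a median of 2 annotated starts, against 1 for other coding genes. Among non-coding hosts, 2 of 32 (6.25%) had such a summit, those of mir-279 with mir-996 and of mir-282. Of the other non-coding genes, 2.69% had one, and the median was 1 start in both non-coding groups. Whether the number of starts bears on these shares was not tested.

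Most of the coding host promoters are far from the hairpin. Among them the strongest was at Btk, a non-receptor tyrosine kinase that hosts mir-2b-1, with signals of 143.8 in replicate 1 and 198.0 in replicate 2, and 353.3 in the pooled list (rank 67). Its summit was 19168 bp from the hairpin. At for, the cGMP-dependent protein kinase that hosts mir-4972, the signals were 111.9 in replicate 1 and 116.2 in replicate 2. The pooled signal was 232.2, with the summit 4491 bp downstream of the hairpin. The for start next to this summit is also downstream, so a transcript from that start would not hold mir-4972. At spi, the EGF receptor ligand that hosts mir-2a-2, mir-2a-1 and mir-2b-2, the signal was 38.7 in replicate 1, where it was not called, and 70.2 in replicate 2, where it was. The spi summit had a pooled signal of 99.9 and lay 5453 bp from the closest of the 3 hairpins.

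Several miRNA genes had their nearest summit just outside 2000 bp, and the limit decided how they were counted. Inside it, the farthest were mir-313 at 1608 bp and mir-312 at 1474 bp. Between 2000 and 2500 bp lay 7 genes, mir-ban at 2036 bp, mir-2498 at 2127 bp, mir-2279 at 2269 bp, mir-2495 at 2281 bp, mir-955 at 2331 bp, mir-34 at 2336 bp and mir-4982 at 2400 bp. The summit near mir-2495 was 8 bp from the start of the ribosomal protein gene RpL37A, and the one near mir-4982 was at the promoter of its host Hs3st-A. Only the summit near mir-ban was called in both replicates, and that near mir-34 was called in neither. The summit near mir-2279 had a pooled signal of 3.8 and ranked 1811 of 1825.

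The gene mir-ban is bantam, which promotes growth and blocks cell death by repressing hid. Its nearest peak, chr3L:644146-644501, was called in both replicates, with signals of 60.4 in replicate 1 and 82.7 in replicate 2. The pooled signal was 141.2, rank 452. The summit lay downstream of the hairpin in intergenic sequence. Another pooled summit, with a signal of 160.3, lay 7396 bp upstream of the start of the hairpin. In the ranked list a weaker region lay 1479 bp upstream of the hairpin, with a pooled signal of 77.9 and a rank of 1293.

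**Figure D3:**
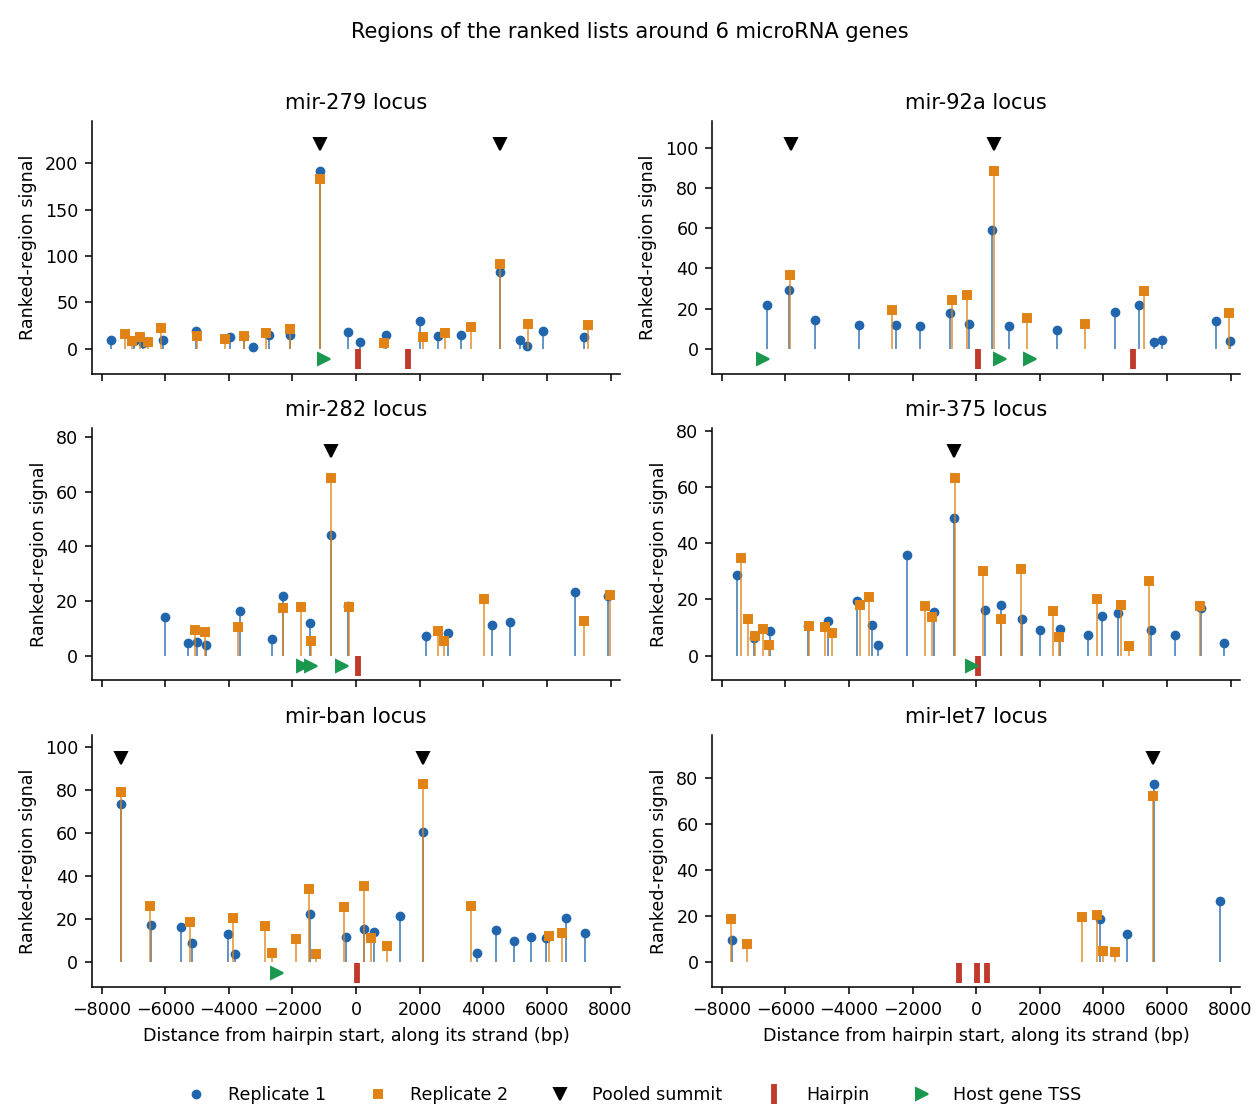
Regions of each replicate's ranked list within 8000 bp of 6 microRNA genes, by distance in bp from the hairpin's start along its strand (x axis) and signal (y axis). Circles are replicate 1, squares replicate 2, black triangles pooled summits, red bars hairpins and green arrowheads the starts of the host gene. At mir-279, mir-92a, mir-282 and mir-375 a region that stands above its neighbours in both replicates lies within 2000 bp, at mir-ban it lies at 2116 bp from the hairpin's start, and at mir-let7 no region lies within 2000 bp of the hairpin.

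Groups of miRNAs with known roles in the embryo were then followed gene by gene. A summit was near 4.62% of all miRNA genes and 4.9% of positions. At these shares each group would hold few genes near a summit or none, so their counts show nothing particular to a group. The mir-309 cluster, 8 genes from mir-309 to mir-6-3 that are switched on at the onset of zygotic transcription and clear maternal messenger RNAs, had its nearest pooled summit 28603 bp away. The strongest ranked region within 2000 bp was the same for all 8, with a signal of 50.5, a rank of 4378 and a −log10 IDR of 0.16, far under the authors' threshold. The best region of each replicate's own ranked list had a signal of 15.6 in replicate 1 and 37.5 in replicate 2.

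The Hox cluster miRNAs lie among the homeotic genes, and mir-iab-4 and mir-iab-8, made from opposite strands of the same site, repress Ubx and abd-A. None of the 4 genes had a summit within 2000 bp. The nearest lay 13062 bp away for mir-iab-4 and mir-iab-8, 16813 bp for mir-993 and 49986 bp for mir-10. Their strongest ranked regions had signals of 25.1 to 41.7.

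The let-7 complex, which holds mir-100, mir-let7 and mir-125 in the same transcript and times late development, had no region at all within 2000 bp in any of the 3 ranked lists. This was so for 15 of the 260 miRNA genes, among them mir-263b. The nearest pooled summit to the let-7 complex lay downstream, 5169 bp from mir-125 and 6060 bp from mir-100. It was called in both replicates, with signals of 77.3 in replicate 1 and 72.3 in replicate 2 and a pooled signal of 146.6.

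Of the 3 genes grouped here under muscle and heart, mir-1, mir-92a and mir-92b, only mir-92a was near a summit. The grouping itself is no evidence that mir-92a has a role in muscle or heart. The gene mir-1, the miRNA of muscle cells, had its nearest pooled summit 7409 bp away, at the promoter of CG34007. Within 2000 bp the strongest ranked region of mir-1 had a signal of 58.2 and a rank of 2567, 1180 bp upstream of the hairpin. The best signal within 2000 bp was 19.2 in replicate 1 and 36.4 in replicate 2.

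Of the 8 nervous system genes only mir-279 was near a summit. The strongest ranked regions of the 6 with any had a median signal of 38.9. For mir-124, the neuronal miRNA, the signal was 37.4, and the nearest pooled summit lay 52018 bp away. The gene mir-9a, which limits the number of sensory organ precursors, had a pooled summit 4242 bp upstream, with signals of 72.2 in replicate 1, 123.2 in replicate 2 and 192.6 in the pooled list. That summit was in an exon of lncRNA:CR44676, 301 bp from its start.

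None of the 10 growth, survival and metabolism genes was near a summit, and their strongest ranked regions had signals of 36.5 to 53.1. The gene mir-14, a suppressor of cell death that also acts on fat metabolism, lay 6577 bp from one of the strongest summits of the pooled list (626.6, rank 16), at the promoter of CG1888. That peak had signals of 327.3 in replicate 1 and 308.3 in replicate 2. The nearest summit of mir-8, which tunes growth through the fat body, lay 3134 bp upstream with a signal of 75.4. It was called in neither replicate's own list, where the regions had signals of 25.8 in replicate 1 and 45.8 in replicate 2.

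The K box miRNAs pair with a motif in the messenger RNAs of Notch target genes, and 1 of the 9, mir-308, was near a summit. The AUCACAG seed is shared by 14 genes, of which mir-308 alone was near a summit. The strongest ranked regions of the 9 had a median signal of 33.6 and a range of 28.5 to 108.2. Of the 22 clusters of all kinds, 3 had a gene near a pooled summit, those of mir-279, mir-92a and mir-310. Of all 203 loci, 9 had one (4.43%). A cluster covers more sequence than a lone hairpin, and the mir-310 peak was called in 1 replicate alone. Nothing particular to clusters can therefore be read from this count. The 12-gene cluster on X, whose nearest pooled summit was 36062 bp away, had no ranked region above a signal of 31.6.

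Below the threshold, ranked regions were almost everywhere, and miRNA genes did not stand out among them. A ranked summit lay within 2000 bp of 229 of the 260 genes (88.1%), against 87.4% of main-arm positions, with a median of 5 such regions per gene. Their strongest region had a median signal of 35.5, and tiles of 4092 bp across the main arms, the width of a hairpin with its flanks, had 35.4. Of the miRNA genes with a region, 9.61% exceeded 54.8, the 90th percentile of the tiles. In 4 genes, mir-2497, mir-4973, mir-971 and mir-4917, the strongest ranked summit fell within the hairpin itself, with signals of 32.5 to 43.8. How often this would occur for other short stretches was not counted.

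**Figure D4:**
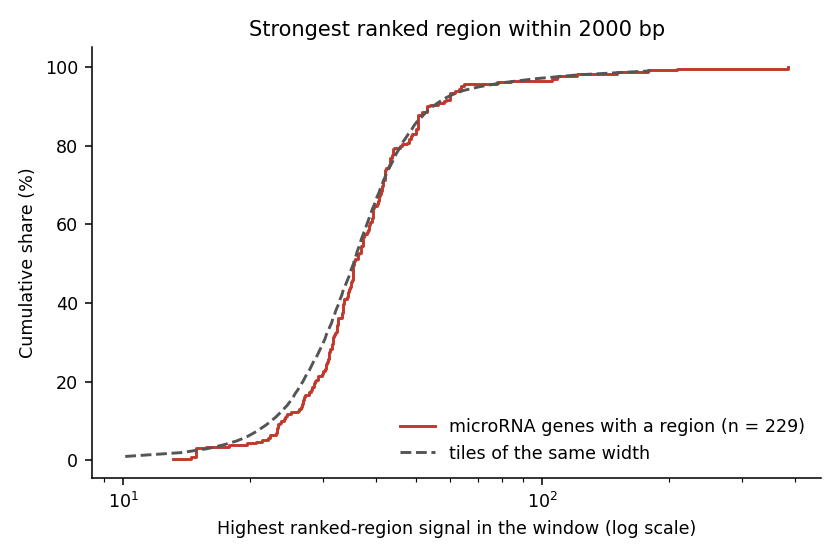
Cumulative share (y axis, %) of the highest ranked-region signal within 2000 bp (x axis, log scale) for the 229 microRNA genes with a region (red) and for main-arm tiles of 4092 bp (dashed grey). The curves lie close together, with medians of 35.5 and 35.4.

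The replicates ordered the loci only weakly alike. Over the 170 loci with a region in both replicates' ranked lists, the best signals had a Spearman rho of 0.32. This is a description over loci of the same 2 libraries, most of which hold regions below threshold.

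Of the genes without a pooled summit, mir-4949, in the ATP synthase subunit gene ATPsynC, had the strongest ranked region. Its signal was 105.5, rank 777, with a −log10 IDR of 2.76. It is among 67 main-arm regions that are past a −log10 IDR of 2.0 but that the authors' thresholded list does not hold. It lay 1589 bp upstream of the hairpin. The strongest region near mir-4949 had a signal of 29.1 and ranked 1989 in the ranked list of replicate 1, and had a signal of 70.4 and ranked 619 in that of replicate 2. After mir-ban, the next were mir-2496 at 64.8, mir-4968 at 64.0, mir-4985 at 63.8, mir-966 at 63.2, mir-4967 at 62.0, mir-990 at 58.7, mir-1 at 58.2 and mir-4957 at 56.3. Of these, mir-4968 had 2 summits within 2000 bp in the conservative list, the nearer at 685 bp and the stronger at 1876 bp. The gene mir-989 had a summit only in the list of replicate 1, with a signal of 38.1 and a rank of 994, 1517 bp from the hairpin.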

How the data were processed

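The authors deposited lists of peaks called on dm6 from ChIP-seq of 2 biological replicates, per the labels, with the aligner and caller not given in the sources used here. Of these lists 7 were used: the pooled and the conservative thresholded lists, the ranked list, and each replicate's thresholded and ranked list. Signals are the authors' values, used as deposited. The authors' ranked lists also give −log10 of the global IDR per region. The files hold no read counts, so depth is unknown.

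Genes came from Ensembl release 115, in which pre-miRNA is a transcript type. The 2 miRNA genes outside the main arms were left out, and mir-ban is counted since that is bantam's symbol there. Sequences are those of the Release 6 genome, with mature miRNAs placed by RefSeq. Distances run from the summit to the nearest base of the hairpin, and a promoter is 500 bp either side of an annotated transcription start. Genes named are all those with a pooled summit within 2000 bp, those up to 2500 bp away, the 10 others with the strongest ranked regions and the genes of 7 lists by role, or were chosen after their values were seen (the host starts, TATAAA, and mir-2497, mir-4973, mir-971, mir-4917 and mir-989). The members and lists were chosen with earlier results of these data known. Shares of main-arm positions were counted over the whole sequence. The counting was tested on simulated data. Python 3.11.15, scipy 1.17.1 and matplotlib 3.10.9 were used.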

Additional observations from a re-analysis of the deposited data

How the results depend on the processing

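Of 34 alternatives, 20 stayed within 1.5 times the reported value, and 14 moved. The 12 genes near a summit became 3 at 500 bp, 7 at 1000 bp, 38 at 5000 bp and 66 at 10000 bp, and the 9 loci became 3, 7, 29 and 53. The share of genes was below that of positions at 500 bp, where it rests on 3 genes, and close to it at 1000 bp. It was above that of positions at 5000 bp and 10000 bp, distances at which other genes were not counted. For loci no matching share of positions was counted. With pooled peaks above the median signal there were 7 genes (2.69%, against 2.64% of positions). With ranked regions at an IDR of 0.05 there were 26 genes in 22 loci, against 9.41% of positions. Without summits at coding starts there were 6 genes (2.31%, against 2.83% of positions). Leaving out either replicate gave 8 to 11 genes and 8 loci. The median of the 10 peaks lay at 27.0% of the pooled ranking, 25.7% of the conservative one, and 35.1 to 49.2% of the replicates' own. CAGTG was present at 6 of the 10 summits within 200 bp (71.9% of all pooled peaks). At starts of any gene type lay 5 summits, with no matching share of all pooled summits counted. The cause was not tested. No paired analysis was possible because there is 1 group. Unknown depth limits what a missing peak means: a region absent from a list is not shown to be unbound.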

Other observations

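Some miRNA genes beyond 2000 bp lay within 10000 bp of very strong summits, chosen after their values were seen. The gene mir-1001, in an exon of tau, was 6261 bp from a peak with signals of 228.9 in replicate 1, 395.5 in replicate 2 and 639.8 in the pooled list (rank 14), at the promoter of CG5611. The gene mir-4912 was 7827 bp from a peak at the promoter of tank, with signals of 186.1 in replicate 1, 186.2 in replicate 2 and 373.4 in the pooled list. For mir-1004 the nearest was at the promoter of bowl, a zinc finger gene of embryonic patterning, 3798 bp away, with 67.3 in replicate 1, 93.6 in replicate 2 and 166.3 in the pooled list.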
